A study of Homo sapiens with 6 samples.

Results

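Cells copy and repair their DNA with sets of enzymes that act in a fixed order, and 40 genes of these sets were examined: homologous recombination, the Fanconi anemia pathway, the replication checkpoint and mismatch repair. The 40 were listed by symbol, each matched 1 gene of the 37202 in the deposited table, and all 40 passed the filter on low counts that left 21509 genes for testing. The libraries came from HK2, a line of human kidney proximal tubule epithelium immortalized with papillomavirus oncogenes. The 3 NR3C2-OE libraries came from cells transfected with a plasmid for NR3C2, the mineralocorticoid receptor, and the 3 Control libraries carry the genotype label normal. No source used here says what the control cells received, when cells were harvested or whether a receptor ligand was added. The labels number the libraries 1 to 3 in each group but do not say that they were separate cultures, so the p-values may reflect technical spread alone.

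Homologous recombination copies a broken DNA end from the sister chromatid. The end is first trimmed, then coated with a recombinase that BRCA2 and PALB2 load, and the joined molecules are later taken apart. The Fanconi proteins recognise crosslinks between the strands, attach ubiquitin to the FANCD2 and FANCI pair and hand the site to recombination. ATR and CHEK1 slow the cycle while replication forks are stalled, and ATM and CHEK2 respond to breaks. Many of these genes are transcribed mainly in dividing cells, and in the proximal tubule they are known for repair after toxic or ischemic injury.

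Each gene had a pair of values per library. FPKM scales fragments by transcript length and library size, and serves for comparing levels between genes. The estimated counts, which totalled 77737375 to 132533971 per library, were used for testing, and are shown as CPM, counts scaled to a common library size with TMM factors. NR3C2 itself had 5.97, 6.26 and 5.16 FPKM in Control against 12.1, 6.95 and 7.41 in NR3C2-OE. Every NR3C2-OE library lay above every Control library, but its log2 fold change, 0.68 with an SE of 0.23, missed the threshold of edgeR's test (adjusted p = 0.486), and was 0.36 without NR3C2-OE library 1. PAX8, KRT8 and KRT18, markers of tubule epithelium, had means of 133.2, 199 and 58.8 FPKM in Control against 150, 198 and 63.1 in NR3C2-OE. For PAX8 the FPKM were higher throughout NR3C2-OE, without overlap, while its CPM overlapped between the groups. Of the brush border and transport markers, CUBN, SLC34A1 and AQP1 had group means of at most 0.12 FPKM, SLC5A2 had 0.82 and 0.74 in Control and NR3C2-OE, and MME had 5.80 and 5.41. GGT1, a brush border peptidase, had 16.3, 17.5 and 45.5 FPKM in Control against 56.7, 53.95 and 51.1 in NR3C2-OE, with no overlap and with Control library 3 nearest to NR3C2-OE. Summed over the list, 3 endothelial markers reached at most 0.15 FPKM in any library, and 3 markers of other nephron segments at most 0.38. The 4 fibroblast markers, chiefly LUM and DCN, summed to 5.59 to 6.82 FPKM in Control against 7.03 to 7.95 in NR3C2-OE. In CPM, both LUM and DCN overlapped between the groups. CD68, a lysosomal protein of macrophages and other cells, was the 1 immune marker matched, at 20.8 to 21.0 FPKM in Control against 23.9 to 30.6 in NR3C2-OE, and the part of these markers in the results was not tested.

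All 40 genes were expressed. Their mean over the 6 libraries ran from 2.5 to 54.4 FPKM with a median of 8.45, against a median of 3.08 FPKM over all genes tested. UBE2T, the ubiquitin-conjugating enzyme of the Fanconi pathway, was the most abundant, with 56.4, 59.0 and 54.0 FPKM in Control against 52.9, 55.5 and 48.3 in NR3C2-OE. FANCI came next with a mean of 32.2 FPKM. At the other end stood FANCM, the motor protein that anchors the Fanconi core complex at stalled forks, with 2.41, 2.56 and 2.29 FPKM in Control against 1.93, 2.91 and 2.91 in NR3C2-OE. FANCF, an adaptor of the core complex, had 3.09, 2.54 and 2.56 FPKM in Control against 3.04, 3.08 and 2.43 in NR3C2-OE. Partners of 1 complex thus differed in level: FANCI exceeded FANCD2 (means of 31.4 and 8.33 FPKM in Control), and TIMELESS exceeded TIPIN (23.1 and 7.81), whereas BRCA1 and BARD1 were close (6.75 and 6.12).

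**Figure D1:**
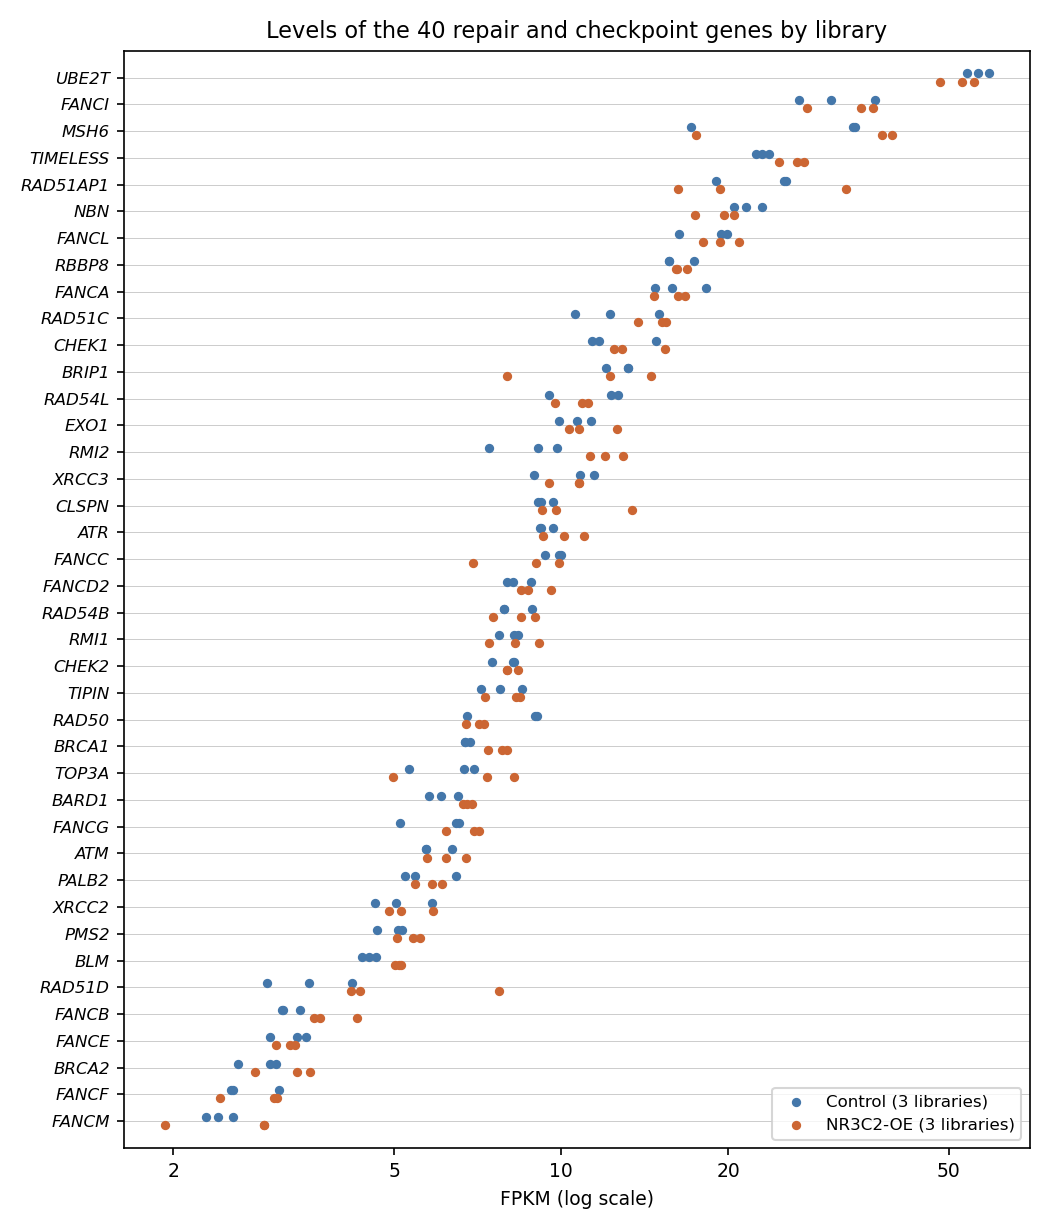
FPKM of each of the 40 genes on a log scale, with a point for each of the 3 Control and 3 NR3C2-OE libraries, ordered by the mean over the 6 libraries. The genes run from FANCM at 2.5 to UBE2T at 54.4 FPKM, and for most of them the points of both groups lie among each other.

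No member differed between NR3C2-OE and Control past the adjusted threshold. In bulk libraries, fewer cells expressing a gene and less RNA per cell cannot be told apart. After Benjamini-Hochberg adjustment over all genes, edgeR's quasi-likelihood test called 0 of 40 (smallest adjusted p = 0.343), where 0.0279% of all tested genes did. Before adjustment, edgeR gave 6 of 40 a p below 0.05 (4 higher in NR3C2-OE and 2 lower), or 15% against 9.19% of all tested genes (4.43% higher and 4.76% lower). The log2 fold changes, NR3C2-OE over Control, had a median of 0.03, with 25 above 0 and 15 below, while all tested genes had a median of 0.0007 with 50.2% above 0. In CPM, 5 members had every NR3C2-OE library above every Control library, where 7.96% of all tested genes did, and 2 had every one below, where 8.75% did. In FPKM, the counts were 6 and 0, where 9.38% and 6.65% of all tested genes did so. The 95% interval lay within a log2 change of 0.5 in either direction for 35 of the 40 genes and within 1 for 38, the exceptions being RAD51D and MSH6. DESeq2's Wald test on the same genes gave an adjusted p below 0.05 for 1 member, RMI2, against 1.52% of the genes tested. The count of 6 was 3 without Control library 1, and 2 without Control library 2 or 3, where 7.29%, 6.94% and 6.88% of all tested genes had a p below 0.05. Without Control library 3 and NR3C2-OE library 1 together, which were left out because of their MSH6 and CHEK1 values described further on, it was 5 (FANCB, NBN, RMI2, TIMELESS and MSH6), where 6.19% of all tested genes had such a p.

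**Figure D2:**
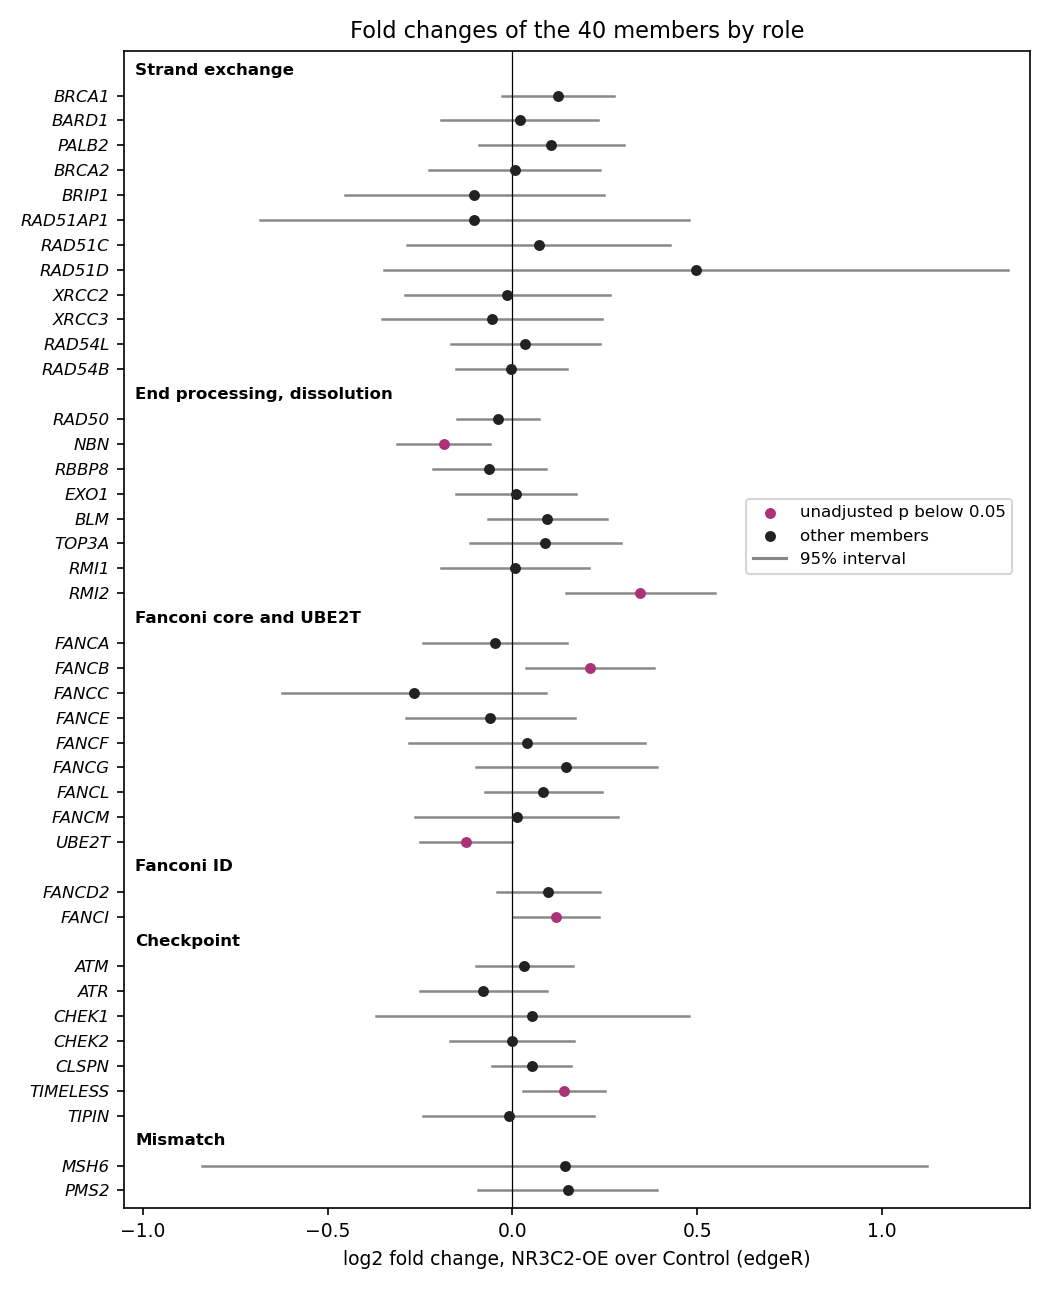
Log2 fold change of each member, NR3C2-OE over Control, in edgeR's fit on the estimated counts, with its 95% interval, grouped by role. The 6 members with an unadjusted p below 0.05 are coloured, and the widest intervals are those of RAD51D and MSH6.

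The 12 genes that load the recombinase and drive strand exchange had 0 members with an edgeR p below 0.05 and a median log2 fold change of 0.01. BRCA1, the ubiquitin ligase that starts recombination at breaks, had 6.70, 6.71 and 6.84 FPKM in Control against 7.38, 7.83 and 8.0 in NR3C2-OE. These FPKM did not overlap, and those of its partner BARD1 did not either (5.79, 6.51 and 6.08 against 6.76, 6.65 and 6.90). In the estimated counts, both groups overlapped for both genes, with log2 fold changes of 0.12 (SE 0.063, edgeR's adjusted p = 0.620) and 0.02 (SE 0.088). BRCA1 and BARD1 were singled out after their values were seen. PALB2, the bridge between BRCA1 and BRCA2, had a log2 fold change of 0.10 (95% interval -0.09 to 0.30), and BRCA2, which loads the recombinase, had 0.0062 (-0.23 to 0.24). The helicase BRIP1, the recombinase partner RAD51AP1, the recombinase paralogs RAD51C, XRCC2 and XRCC3 and the motor proteins RAD54L and RAD54B lay between -0.10 and 0.07. RAD51D, a further paralog, had the highest log2 fold change of the 40, 0.50, with a 95% interval from -0.35 to 1.34.

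Among the 8 genes that trim DNA ends or take joined molecules apart, RMI2 and NBN stood furthest from 0. RMI2 is the small subunit of the BLM, TOP3A, RMI1 and RMI2 complex, which dissolves double Holliday junctions. It had 9.07, 7.40 and 9.85 FPKM in Control against 12.9, 12.02 and 11.3 in NR3C2-OE, or 8.77 ± 1.25 against 12.1 ± 0.83 (SD, n = 3 each). Its CPM were 15.8, 14.99 and 16.4 against 21.7, 19.7 and 18.6, so that the groups did not overlap in either unit. The log2 fold change was 0.35 (SE 0.083, 95% interval 0.15 to 0.55), with an unadjusted edgeR p of 0.0052 and an adjusted p of 0.343. DESeq2 gave RMI2 an adjusted p of 0.0325 on the filtered genes and 0.0596 on every gene of the table (0.672% of which were called), so its call there depended on which genes were tested. In all 6 edgeR fits that left out a library, its unadjusted p stayed below 0.05 (0.0051 to 0.0217), with log2 fold changes of 0.28 to 0.40.

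The other subunits of the RMI2 complex had smaller differences. BLM, its helicase, had 4.37, 4.51 and 4.65 FPKM in Control against 5.02, 5.09 and 5.15 in NR3C2-OE, groups that did not overlap, and its log2 fold change in the counts was 0.09 (SE 0.067, edgeR's adjusted p = 0.723). BLM was singled out after its values were seen. TOP3A, the topoisomerase, had 0.09 and RMI1, which steadies that enzyme, had 0.0072 (95% interval -0.19 to 0.21). The ratio of RMI2 to RMI1 in CPM was 0.51, 0.45 and 0.49 in Control and 0.72, 0.61 and 0.52 in NR3C2-OE, higher in every NR3C2-OE library. The difference had an exact two-sided permutation p of 0.1, the smallest that 3 against 3 libraries allow, and an adjusted p of 0.267 over the 8 partner ratios computed.

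NBN, the subunit that brings the end-trimming nuclease complex to breaks and activates ATM there, was the lowest in p among the members with lower values. Its CPM were 143, 136 and 132 in Control and 116, 125 and 121 in NR3C2-OE, which do not overlap. Its FPKM, 23.0, 21.5 and 20.5 against 17.4, 20.5 and 19.7, overlapped narrowly. The log2 fold change was -0.19 (SE 0.052), with an unadjusted edgeR p of 0.0109 and an adjusted p of 0.408, and the unadjusted p was below 0.05 in all 6 fits that left out a library. RAD50, the long coiled-coil subunit of the same complex, had a log2 fold change of -0.04 (95% interval -0.15 to 0.07). The ratio of NBN to RAD50 was 2.70, 2.52 and 2.52 in Control and 2.18, 2.47 and 2.33 in NR3C2-OE, lower in every NR3C2-OE library (exact permutation p = 0.1, adjusted p = 0.267). RBBP8, the cofactor that starts trimming, and EXO1, the exonuclease that extends it, had log2 fold changes of -0.06 and 0.01.

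**Figure D3:**
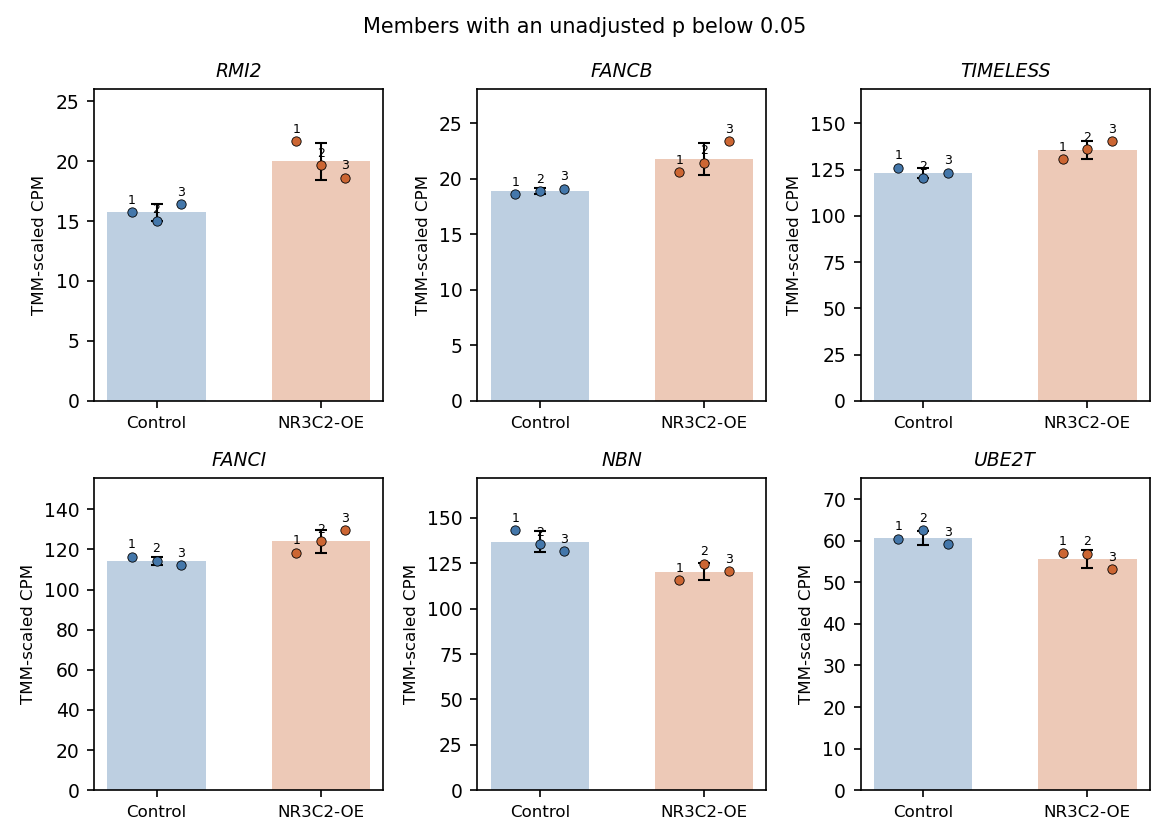
TMM-scaled CPM of the 6 members with an unadjusted edgeR p below 0.05, with a numbered point for each library, bars at the mean and error bars of 1 SD (n = 3 each). RMI2, FANCB, TIMELESS and FANCI were higher throughout NR3C2-OE, without overlap, and NBN and UBE2T were lower.

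In the Fanconi pathway the members differed in direction. FANCB, a core subunit that builds the ligase module, had 3.13, 3.39 and 3.16 FPKM in Control against 3.67, 3.58 and 4.29 in NR3C2-OE, with every NR3C2-OE library above Control. Its log2 fold change was 0.21 (SE 0.072, edgeR's adjusted p = 0.485). UBE2T, by contrast, had 60.5, 62.5 and 59.2 CPM in Control and 57.0, 56.9 and 53.1 in NR3C2-OE, with a log2 fold change of -0.13 (SE 0.052, edgeR's adjusted p = 0.543). The FPKM of UBE2T overlapped between the groups, and its unadjusted p was above 0.05 in each fit that left out a library, while that of FANCB was below 0.05 in 2 of the 6 such fits. FANCL, the ligase that works with UBE2T, had a log2 fold change of 0.08 (95% interval -0.07 to 0.24). The ratio of UBE2T to FANCL was 1.25, 1.35 and 1.33 in Control and 1.24, 1.10 and 1.06 in NR3C2-OE (exact permutation p = 0.1, adjusted p = 0.267).

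The substrates of that ligase, FANCD2 and FANCI, had nearly equal log2 fold changes of 0.10 (SE 0.058) and 0.12 (SE 0.048). FANCI had 116, 114 and 112 CPM in Control and 118, 124 and 130 in NR3C2-OE, without overlap (edgeR's adjusted p = 0.540). Its FPKM, 36.8, 30.6 and 26.8 against 36.5, 34.7 and 27.7, overlapped widely, and its unadjusted p was below 0.05 in 1 of the 6 fits that left out a library. The ratio of FANCI to FANCD2 in CPM lay between 2.59 and 2.81 in all 6 libraries and overlapped between the groups. The remaining core subunits FANCA, FANCE, FANCF, FANCG and FANCM had log2 fold changes between -0.06 and 0.15. FANCC had -0.27 (SE 0.15), the lowest of the 40, with 39.5, 39.8 and 40.4 CPM in Control and 32.8, 40.4 and 26.4 in NR3C2-OE, of which library 2 lay at the Control level.

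Among the 7 checkpoint genes, TIMELESS alone had an edgeR p below 0.05. TIMELESS, which holds the replication fork together with TIPIN and helps ATR signal to CHEK1, had 23.7, 22.4 and 23.1 FPKM in Control against 24.7, 26.6 and 27.4 in NR3C2-OE. Neither FPKM nor CPM overlapped between the groups, and the log2 fold change was 0.14 (SE 0.046, edgeR's adjusted p = 0.477). TIPIN had a log2 fold change of -0.0098 (95% interval -0.24 to 0.22), an interval that includes the value of TIMELESS, and their ratio overlapped between the groups. The unadjusted p of TIMELESS was below 0.05 in 2 of the 6 fits that left out a library, and not with the replicate number as a block. The kinases ATM and ATR, which sense breaks and stalled forks, had 0.03 (95% interval -0.10 to 0.16) and -0.08 (-0.25 to 0.09). Their effector kinases CHEK1 and CHEK2 had 0.05 (-0.37 to 0.48) and -0.0008 (-0.17 to 0.17). CLSPN, the adaptor between ATR and CHEK1, had 0.05 (-0.05 to 0.16). Of the mismatch repair genes, MSH6, which recognises mispaired bases, had 0.14 (-0.84 to 1.12), and PMS2, whose protein cuts the new strand, had 0.15 (-0.09 to 0.39). PMS2 has near-identical pseudogene copies, 17 of them in the table with summed counts of 922 to 1871 per library against 2161 to 3413 for PMS2, so its value is uncertain.

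Some members varied more between libraries of a group than between the groups. MSH6 had 33.9, 33.6 and 17.1 FPKM in Control against 17.5, 37.9 and 39.5 in NR3C2-OE, so that Control library 3 and NR3C2-OE library 1 held about the same low level. The CPM showed the same split, with 109 and 117 in those libraries and 235 to 266 in the other 4. CHEK1 went the other way in the same libraries, with 52.7 and 53.8 CPM there and 37.3 to 40.7 elsewhere. With both libraries left out, the log2 fold changes were 0.15 for MSH6 and 0.07 for CHEK1. MSH6 then had an unadjusted edgeR p below 0.05 (adjusted p = 0.802), in a setting chosen on its own values. Control library 3 and NR3C2-OE library 1 together held the lowest CPM of 5 further members (XRCC2, FANCA, FANCL, FANCM and ATM), by smaller margins. With MSH6 these are 15% of the members, against 5.75% of all tested genes. For the highest CPM the shares were 2.5% (CHEK1 alone) and 5.59%. Both libraries were singled out for their MSH6 and CHEK1 values, which count in these shares, so the shares are not independent evidence.

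RAD51D and RAD51AP1 depended on NR3C2-OE library 3. RAD51D had 16.4, 14.0 and 14.0 CPM in Control and 14.8, 13.9 and 33.9 in NR3C2-OE, and without that last library its log2 fold change was -0.04 in place of 0.50. RAD51AP1 had 30.9, 41.7 and 39.98 CPM in Control and 27.5, 28.9 and 48.3 in NR3C2-OE, and its log2 fold change was -0.41 without library 3. BRIP1 was lowest in NR3C2-OE library 1, with 56.8 CPM against 71.8 to 85.9 in the other 5 libraries. Over all 40 members, the highest CPM exceeded the lowest by a median factor of 1.21, and by more than 1.5 for 5 genes (MSH6, RAD51D, RAD51AP1, FANCC and BRIP1).

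**Figure D4:**
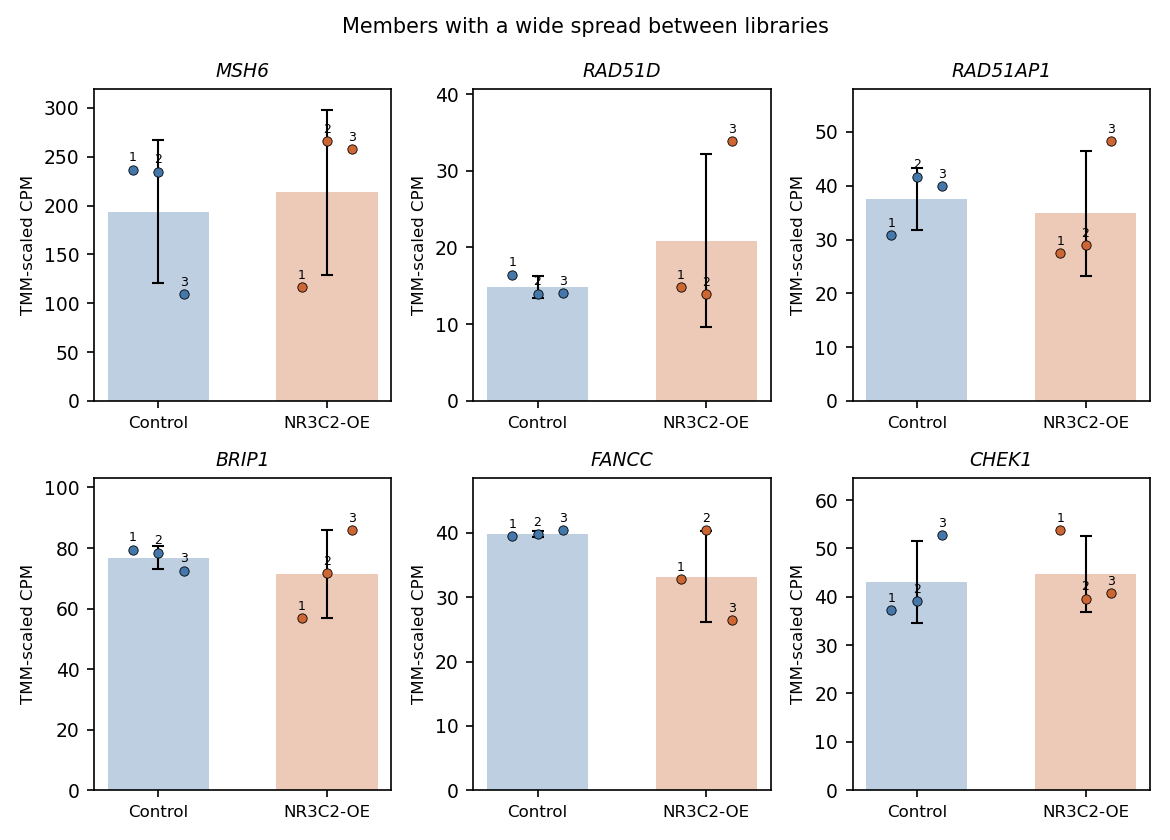
TMM-scaled CPM of 6 members with a wide spread, with a numbered point for each library, bars at the mean and error bars of 1 SD (n = 3 each). MSH6 is low and CHEK1 high in Control library 3 and NR3C2-OE library 1, and RAD51D is high in NR3C2-OE library 3 alone.

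For several genes, FPKM and estimated counts did not move together. Estimated counts were scaled to the library total and divided by FPKM. This ratio is the transcript length, in kilobases, behind the FPKM only if both used the same counts and totals, which no source used here states. For TOP3A the ratio was 3.01 to 3.14 in 4 libraries, but 4.24 in Control library 1 and 4.32 in NR3C2-OE library 2. Those libraries had the lowest FPKM of TOP3A (5.32 and 4.97, against 6.67 to 8.23 elsewhere), while its CPM stayed between 20.2 and 24.8. For FANCI the ratio ran from 3.16 to 4.72, and for CLSPN it was 6.79 in NR3C2-OE library 3 and 9.01 to 9.25 elsewhere. CLSPN had 13.4 FPKM in that library and 9.08 to 9.79 in the others. FANCF kept 3.92 to 3.95, and TIMELESS had 5.30 to 5.33 in Control against 5.18 to 5.26 in NR3C2-OE. Whether different transcripts underlie these shifts was not tested.

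Exons of 13 members overlap another tested gene in the GENCODE 29 annotation, and no source used here says whether counting used the strand. FANCI overlaps POLG on the opposite strand, and with the CPM of both added its log2 change was 0.07. CHEK1 overlaps STT3A on its own strand (229 and 218 CPM in Control and NR3C2-OE), and with both added its log2 change was -0.05 in place of 0.05. BRCA1 overlaps AC060780.1 on its own strand, with a summed log2 change of 0.08, and RAD54B overlaps FSBP, with -0.03. MSH6 overlaps FBXO11 on the opposite strand (69.3 and 66.9 CPM). RMI2, NBN, FANCB, TIMELESS and UBE2T had no tested gene overlapping their exons.

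Other repair genes were described with the members. Of all tested genes, 9.19% had an edgeR p below 0.05, 50.2% had a log2 fold change above 0 and DESeq2 called 1.52%. Of 28 further recombination genes, 21 had log2 fold changes above 0 and 7 below, and 1 had an edgeR p below 0.05. That gene was SPIDR, a scaffold for recombination. Its log2 fold change in the counts was 0.30 (SE 0.070), and its FPKM were 14.2 ± 1.19 against 14.4 ± 0.97. The nuclease GEN1, which cuts Holliday junctions, had 1.00 (SE 0.53), with 60.7 CPM in NR3C2-OE library 1 and 14.3 to 18.7 in the other 5 libraries. Of 17 further Fanconi pathway genes, 2 were past that p, FAAP20 (0.17, SE 0.061), a core complex subunit, and the ubiquitin ligase RAD18 (-0.16, SE 0.060). Of 23 further checkpoint genes, 15 had log2 fold changes above 0 and 3 had a p below 0.05. RPA2, a subunit of the single-strand binding protein, had a log2 fold change of 0.26 (SE 0.060), from 46.2 ± 1.12 to 56.3 ± 3.90 FPKM (SD, n = 3 each). H2AX, the histone phosphorylated at breaks, had -0.20 (SE 0.062), and the phosphatase CDC25B had -0.13 (SE 0.043). Of 16 end joining genes, 0 had a p below 0.05 in either direction in edgeR's test, and DESeq2 called 0. XRCC6, the Ku subunit that binds broken ends, had 275 ± 6.29 and 263 ± 3.47 FPKM (log2 fold change -0.08). Of 28 excision repair genes, 13 had log2 fold changes above 0 and 4 had a p below 0.05, among them the glycosylase NTHL1 (0.25), the ligase LIG3 (-0.23) and the helicase ERCC2 (-0.13). Of 5 further mismatch repair genes, 2 had log2 fold changes above 0 and 1 had a p below 0.05. After adjustment over all genes, 0 genes of these lists passed edgeR's test, and DESeq2 called 1, in the recombination list.

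The same libraries differed far more in genes that mark the phases of the cell cycle. Of 16 G1/S genes, 12 had an edgeR p below 0.05 and all 16 were above 0, with a median log2 fold change of 0.24. Of 20 G2/M genes, 19 had an edgeR p below 0.05 with log2 fold changes below 0, and the median was -0.27. Over all tested genes, 4.43% had such a p with higher values in NR3C2-OE and 4.76% with lower values, and 50.2% were above 0. These lists were written with earlier results of the same libraries known, so their directions are not independent evidence. In edgeR's test, 0 of their genes passed adjustment over all genes (DESeq2 called 6 and 11, against 1.52% of all tested genes). By library, the median log2 difference from the Control mean over the 40 members was -0.02, 0.01 and 0.09 in NR3C2-OE libraries 1, 2 and 3. Over the G1/S list it was 0.24, 0.27 and 0.18, and over the G2/M list -0.30, -0.25 and -0.24. In each NR3C2-OE library the member median lay between those of the phase lists, and the part of the phases in the values of single members was not tested.

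**Figure D5:**
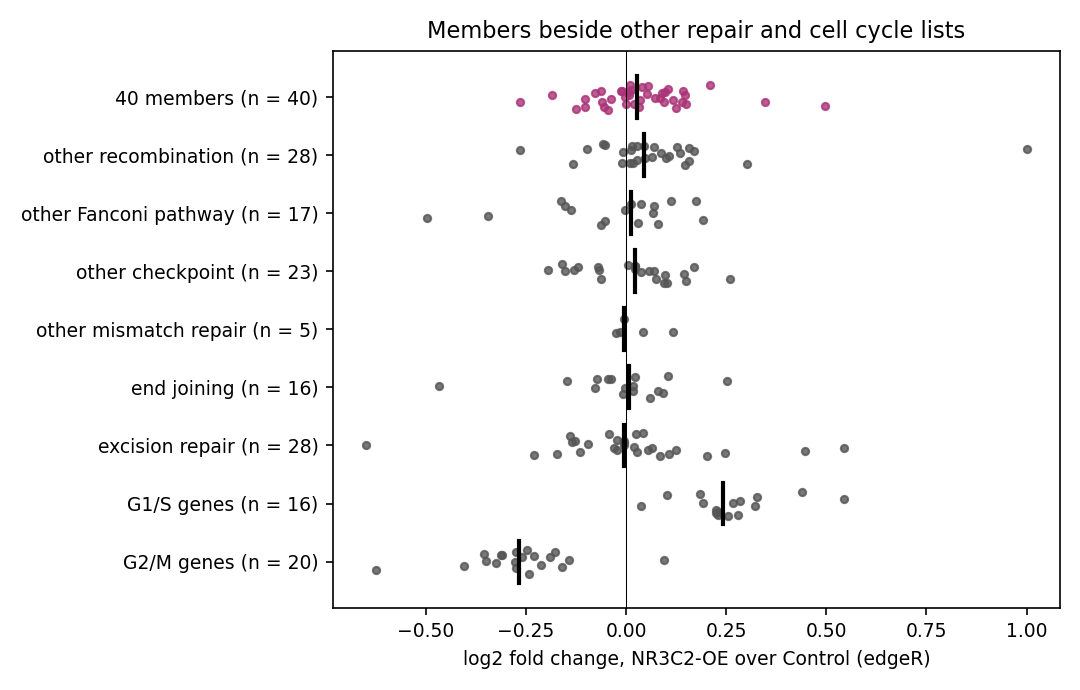
Log2 fold change of each tested gene, NR3C2-OE over Control, in edgeR's fit, for the 40 members and 8 other lists, with a bar at each list's median. The medians of the members and of the other repair lists lie between -0.01 and 0.05, while those of the G1/S and G2/M lists are 0.24 and -0.27. UNG stands in both the excision repair and G1/S lists, and MAD2L2 in both the Fanconi and end joining lists.

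E2F factors bind the promoters of many G1/S genes, and the promoters of many G2/M genes hold CHR elements. RefSeq promoters of the members (GRCh38.p14, 250 bases before to 50 after each start) were therefore searched for the letters of both. Promoters were found for 36 of the 40 symbols, and no entry was used for RAD54B, NBN, RMI2 and FANCI. For 30 of the 36, the first 30 transcribed bases were found in a GENCODE 29 transcript of the gene. The starts of the others were not matched in this way. The E2F letters searched on both strands were TTTGGCGC, TTTCGCGC, TTTCCCGC and TTTGCCGC, and 10 of the 36 genes held at least 1 of them (XRCC2, EXO1, RMI1, FANCA, FANCC, FANCD2, CLSPN, TIPIN, MSH6 and PMS2). That is 27.8% of these genes, against 6.31% of the 12716 tested genes with a promoter and 3.31% of all 35116 promoters. Their log2 fold changes had a median of 0.0089, and those of the 26 members without the letters a median of 0.03. The CHR letters TTTGAA and TTTAAA were in 6 of the 36 genes, or 16.7%, against 21.9% of tested genes and 24.0% of all promoters. The log2 fold changes of these 6 had a median of -0.05, and those of the 30 without the letters 0.04. Above 0 were 3 of the 6 members with CHR letters and 6 of the 10 with E2F letters. EXO1 and FANCC held both kinds, FANCC in 1 promoter and EXO1 in the promoters of different listed starts. Over all tested genes with the letters, the median was -0.0096 for CHR and 0.0065 for E2F. The stretches below show where the letters lie before the start of genes that hold them. They are written 5′ to 3′ in the direction of the gene, with the letters found on either strand in capitals. The TIPIN, RMI1 and PMS2 stretches each lie before 1 of the listed starts of their gene. That of TIPIN holds TTTGGCGC on both strands with an overlap.
TIPIN, chr15:66356716-66356775, minus strand: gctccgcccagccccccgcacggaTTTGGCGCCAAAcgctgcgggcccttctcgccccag
RMI1, chr9:83980745-83980804, plus strand: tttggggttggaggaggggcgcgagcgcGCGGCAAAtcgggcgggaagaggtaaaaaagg
FANCC, chr9:95317720-95317779, minus strand: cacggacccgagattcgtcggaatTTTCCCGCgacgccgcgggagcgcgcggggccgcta
FANCA, chr16:89816788-89816847, minus strand: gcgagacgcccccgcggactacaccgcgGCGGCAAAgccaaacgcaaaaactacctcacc
PMS2, chr7:6009117-6009176, minus strand: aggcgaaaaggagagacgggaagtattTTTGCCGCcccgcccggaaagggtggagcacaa

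Of the members with an unadjusted p below 0.05, UBE2T held CHR letters, and TIMELESS and FANCB held neither kind within their windows. UBE2T, TIMELESS and FANCB are shown because they lay on opposite sides of 0, with log2 fold changes of -0.13, 0.14 and 0.21. For UBE2T the stretch ends 121 bases before the start and the capitals mark TTTGAA, and the others are the 60 bases just before the start.
UBE2T, chr1:202342057-202342116, minus strand: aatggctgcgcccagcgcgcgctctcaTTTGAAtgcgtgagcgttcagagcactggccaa
TIMELESS, chr12:56449427-56449486, minus strand: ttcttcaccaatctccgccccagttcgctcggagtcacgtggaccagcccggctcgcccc
FANCB, chrX:14873070-14873129, minus strand: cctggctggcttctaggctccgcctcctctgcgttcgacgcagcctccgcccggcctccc
The letters describe these windows, and binding of any factor to them was not measured here.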

How the data were processed

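RNA of 6 HK2 libraries was sequenced in pairs on an Illumina HiSeq from strand-specific libraries, per the labels' protocols. The submitters' processing notes name cutadapt 1.2.1, an adapter trimmer, and no source used here names the aligner, counter, build or annotation. The authors deposited 1 table with FPKM and an estimated count, already whole, per gene and library. Low estimated counts peak at multiples of 4 (8694 values of 4, 5772 of 3), and how they were made is not stated, so the number of independent fragments behind each is unknown. All 36466 Ensembl identifiers matched a symbol, and 736 assembly-named genes (2.88% to 2.98% of counts) stayed in totals and tests.

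Counts were tested with edgeR 4.0.16 (R 4.3.3; filterByExpr, TMM, glmQLFit, glmQLFTest, group alone), Benjamini-Hochberg adjustment over all genes and a threshold of 0.05, two-sided, and the steps were tested on simulated counts. SE and 95% intervals come from the F statistics with 6.36 degrees of freedom. Alternatives used DESeq2 1.42.0 and limma 3.58.1. Members and lists were chosen with earlier results of these data known. Named genes were all members, with every library's value where the unadjusted p was below 0.05 or the level was among the 2 highest or 2 lowest, and up to 3 genes of smallest p per other list.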

Additional observations from a re-analysis of the deposited data

How the results depend on the processing

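No member passed edgeR's adjusted threshold under any of the edgeR or limma settings run, and DESeq2 on the filtered genes called 1 (RMI2), while DESeq2 on every gene of the table called 0. Over all genes the count of 6 became 5 to 18 when a library was left out, 0 with the replicate number as a block, 328 with DESeq2 on the filtered genes, 250 with DESeq2 on every gene, and 11 with limma on log2(FPKM + 0.1). Members with an unadjusted p below 0.05 numbered 2 to 6 when a library was left out, where 6.88% to 10% of all tested genes had one. With the replicate block there were 3, where 6.93% of all tested genes had one. Deviations from the group mean correlated at 0.004 to 0.027 between same-numbered libraries and at -0.037 to 0.023 between differently numbered ones. With 3 libraries per group, such values cannot show whether the libraries were paired, and the labels do not say. The median log2 fold change over the members was -0.016 to 0.057 when a library was left out, 0.070 with limma on log2(FPKM + 0.1), and 0.080 without Control library 3 and NR3C2-OE library 1. The last setting and DESeq2 on every gene were chosen after seeing the data. The cause of these shifts was not tested.

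The sign of the log2 fold change differed from the reported one for 21 of the 40 members in at least 1 fit that left out a library, RAD51D and MSH6 among them, and for 13 under other settings. On log2(FPKM + 1) and log2(FPKM + 0.1), the log2 fold changes had the opposite sign for XRCC2 (0.032 and 0.038), RAD54L (-0.098 and -0.11), RAD54B (0.016 and 0.018), RBBP8 (0.015 and 0.016), ATR (0.10 and 0.11), CHEK2 (0.023 and 0.025) and TIPIN (0.032 and 0.036). BRCA2 changed sign with the block (-0.00095), without the filter (-0.0047) and with voom (-0.0011), as did XRCC2 with voom (0.0047), CHEK2 with 50 counts (0.00011), and EXO1 (-6.1e-05) and RMI1 (-0.0035) without the filter. Without Control library 3 and NR3C2-OE library 1, so did RAD51AP1 (0.091), RAD54B (0.027), FANCE (0.021), FANCF (-0.058) and TIPIN (0.11). When a library was left out, the log2 fold change ran from -0.0037 to 0.070 for ATM, -0.041 to 0.11 for BARD1, -0.051 to 0.10 for BRCA2, -0.26 to 0.038 for BRIP1, -0.10 to 0.23 for CHEK1, -0.030 to 0.020 for CHEK2, -0.033 to 0.052 for EXO1, -0.099 to 0.036 for FANCA, -0.12 to 0.0071 for FANCE, -0.018 to 0.14 for FANCF, -0.094 to 0.11 for FANCM, -0.14 to 0.44 for MSH6, -0.41 to 0.042 for RAD51AP1, -0.059 to 0.20 for RAD51C, -0.042 to 0.72 for RAD51D, -0.034 to 0.017 for RAD54B, -0.015 to 0.10 for RAD54L, -0.068 to 0.067 for RMI1, -0.073 to 0.063 for TIPIN, -0.087 to 0.10 for XRCC2 and -0.17 to 0.031 for XRCC3. The estimated counts limit precision, since their number of independent fragments is not known.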
